A study of Mus musculus with 16 samples.

Results

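Genes that mark the resting, or homeostatic, state of microglia were followed in single nuclei of the mouse hippocampus. The group holds 9 genes, *P2ry12*, *P2ry13*, *Gpr34*, *Cx3cr1*, *Selplg*, *Siglech*, *Fcrls*, *Tmem119* and *Sall1*, of the 32285 genes in each deposited matrix and was picked by gene symbol, with earlier results of these data known. Their unique molecular identifiers (UMIs, each standing for 1 captured transcript) were summed per library over microglia and, for contrast, over border macrophages and excitatory neurons. All 16 libraries came from male mice, with 4 libraries in each of 4 groups. Wild-type (WT) mice were C57BL/6 and aged 2 months and 23 days. The others were *Ifnar1*-/- (KO), without a chain of the type I interferon receptor, and at 3 months and 3 days they were older. Genotype, age and anything else that goes with them cannot be told apart. Within each genotype, mice had received repeated intraperitoneal injections of vehicle or of DMXAA, an agonist of mouse STING, the sensor that triggers interferon production, and the hippocampus of the right hemisphere was taken a day after the last injection. No label names an animal, so p-values measure the spread between libraries.

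Microglia are the resident macrophages of the brain tissue. In the healthy brain they keep a ramified shape, survey their surroundings and express a set of receptors that other macrophages largely lack or lose, and this programme depends on transforming growth factor-β signals and on transcription factors such as PU.1 and SALL1. When microglia respond to injury, infection or interferon, transcripts of this set are known to decline while inflammatory and interferon-stimulated transcripts rise. Border macrophages live in the meninges, perivascular spaces and choroid plexus and share part of the set.

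Microglia were 4781 nuclei in 1 cluster, with 210 to 388 nuclei and 375586 to 833481 UMIs per library. The cluster expressed all 12 microglial markers used to name it, none of which belongs to the 9 genes. The 12 border macrophage markers summed to 226 to 442 CPM (UMIs scaled to a fixed total per library and class) in it, with *Pf4* at 0, and the 8 monocyte markers to 2.4 to 32.5 CPM, with *Ly6c2* at 0. Border macrophages were 485 nuclei in 1 cluster, 12 to 124 per library. It held 11 of 12 border macrophage markers, and *Mrc1* and *F13a1* led its top genes, but it held all 12 microglial markers as well. Its marker score was 6.15 for border macrophages and 5.89 for microglia, and microglial markers summed to 6678 to 7762 CPM in its WT vehicle libraries, against 12636 to 14046 CPM in microglia. Border macrophage markers in it summed to 13028 to 16179 CPM in WT vehicle and to 3247 to 13484 CPM in WT DMXAA libraries. What part of its values came from microglia was not tested. Library pairs shared 12 to 41 barcodes. *Ifnar1*, the targeted gene, was read at 12.2 to 16.5 CPM in excitatory neurons of the WT libraries and at 7.47 to 10.3 CPM in those of the KO libraries, without overlap but still counted, whereas in microglia the ranges overlapped, 37.2 to 84.1 against 17.8 to 54.9 CPM. One library, WT DMXAA replicate 3, stood apart. In its microglia the summed microglial markers reached 7973 CPM, against 10819 to 14366 CPM in the other 15 libraries, and neuronal markers were at their highest of all libraries. Its border macrophage cluster held 124 nuclei, against 12 to 35 elsewhere, with less of the summed border macrophage markers (3247 CPM) than of monocyte markers (4179 CPM), against its label. In its neurons *Malat1*, an RNA retained in the nucleus, was at 19260 CPM, within the range of the KO libraries (8734 to 23595 CPM) and below the other WT libraries (48670 to 89471 CPM), and its *Ifnar1* was the lowest of the WT libraries. Tests of the 9 genes that include WT DMXAA are given with and without it.

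Of the 9 genes, 6 had a promoter in the RefSeq table used, which covers 250 bases before to 50 bases after each start site on GRCm38.p6. The promoters of *Fcrls* and *P2ry13* are shown because these genes had the largest DMXAA differences in WT microglia, and that of *P2ry12* because the gene lies beside *P2ry13*. Capitals mark the core letters of a PU.1 motif, GAGGAA.
*Fcrls* (chr3:87263475-87263774, minus strand): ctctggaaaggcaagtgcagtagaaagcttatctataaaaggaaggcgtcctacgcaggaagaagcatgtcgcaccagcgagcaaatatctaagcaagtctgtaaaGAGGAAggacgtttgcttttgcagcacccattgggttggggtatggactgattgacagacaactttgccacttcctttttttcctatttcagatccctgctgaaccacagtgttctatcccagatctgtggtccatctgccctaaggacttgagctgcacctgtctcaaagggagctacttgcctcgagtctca
*P2ry13* (chr3:59210833-59211132, minus strand): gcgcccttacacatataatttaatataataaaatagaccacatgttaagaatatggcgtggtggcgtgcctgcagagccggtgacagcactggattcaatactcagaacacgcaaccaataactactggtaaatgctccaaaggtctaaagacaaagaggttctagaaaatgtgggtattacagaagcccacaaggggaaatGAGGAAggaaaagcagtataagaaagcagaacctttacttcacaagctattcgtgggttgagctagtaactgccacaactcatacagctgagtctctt
*P2ry12* (chr3:59262936-59263235, minus strand): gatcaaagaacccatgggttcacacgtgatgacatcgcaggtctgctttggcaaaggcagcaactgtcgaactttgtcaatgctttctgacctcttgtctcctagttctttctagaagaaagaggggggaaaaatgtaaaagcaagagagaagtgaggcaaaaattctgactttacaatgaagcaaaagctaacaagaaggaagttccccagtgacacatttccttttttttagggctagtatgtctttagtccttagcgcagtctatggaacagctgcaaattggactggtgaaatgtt
The motif lay 144 bases before the RefSeq start site of *Fcrls* and 48 bases before that of *P2ry13*, on the strand shown. RefSeq places the start of *Fcrls* 214 bases inside the gene as annotated on GRCm38 (span given with its levels), so by that annotation the motif lies 70 bases within the gene. For *P2ry13* both sources give the same start. It was absent from the *P2ry12* window, present near the start of *Siglech* on the other strand, and held by 28.3% of the 32851 promoters of the table, both strands searched. The SMAD box CAGACA, which SMAD proteins of the transforming growth factor-β pathway bind, was found in the *Fcrls* and *Siglech* windows and in 21.0% of all promoters. A pattern for signal transducer and activator of transcription binding, TTCNNNGAA, was found in the *Siglech* window and in 8.30% of all promoters. The interferon-stimulated response element pattern GAAANNGAAA (3.44% of all promoters) and the composite PU.1 and interferon regulatory factor pattern GGAANNGAAA (2.72%) were in none of the 8 windows of the 6 genes, *Sall1* having several start sites. These are matches of letters in a short window and were not tested as binding sites.

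In microglia of WT mice, DMXAA was accompanied by lower *Fcrls*, which fell to 37.6% of its vehicle level. *Fcrls* encodes a scavenger receptor with Fc receptor-like domains, and it was the only member that met the call rule, which asked for an edgeR adjusted p below 0.05 together with a log2 fold change beyond 0.1 in size. All 9 members had a lower mean in WT DMXAA than in WT vehicle libraries, with a median log2 fold change of −0.40, against 0.03 over all genes tested. Of all genes tested in WT microglia, 0.570% were called lower and 1.80% in either direction. With WT DMXAA replicate 3 left out, 5 members were called lower, namely *Fcrls*, *P2ry12*, *P2ry13*, *Gpr34* and *Siglech*, where 5.66% of all genes were called lower and 9.41% in either direction. Leaving out WT DMXAA replicate 4 or WT vehicle replicate 4 called 2 members, *Fcrls* and *P2ry12*, where 0.882% and 0.618% of all genes were called lower. DESeq2 and library size alone called the same pair, where 0.682% and 0.760% were called lower. A fit of the WT libraries alone called no member (*Fcrls* edgeR adjusted p = 0.0698), where 0.0580% of genes were called lower. In KO microglia no member was called.

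**Figure D1:**
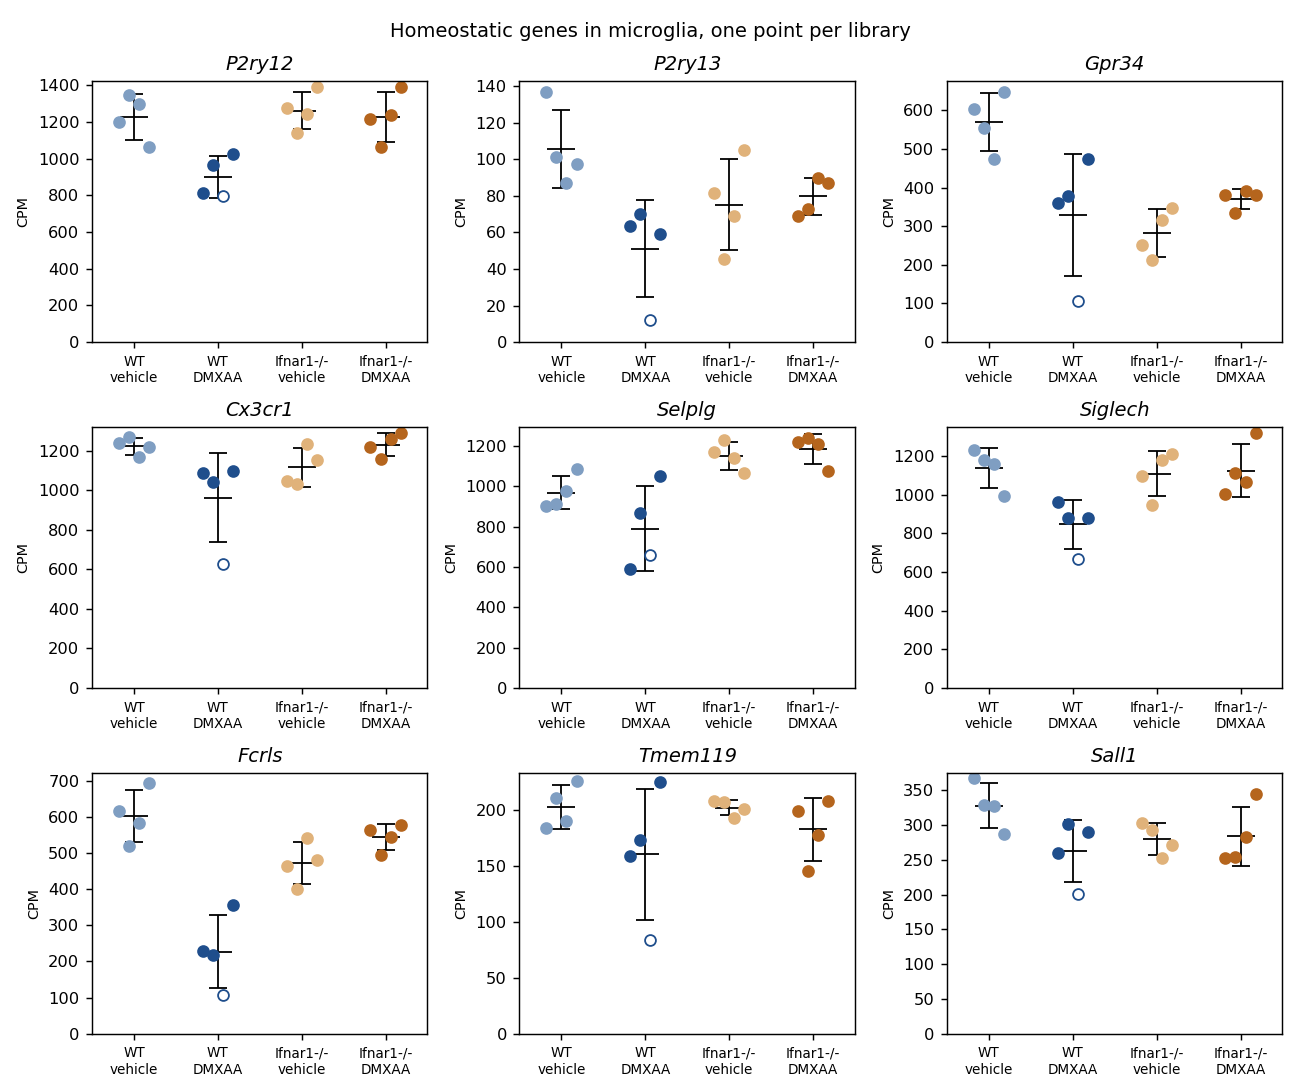
Level of each gene in microglia, as CPM on a linear axis from 0, by group. Each point is 1 library, the horizontal bar and whiskers are the mean and SD of 4 libraries, and the open point is WT DMXAA replicate 3. The 4 WT DMXAA points of *Fcrls* lie between 107 and 355 CPM, all below the WT vehicle points.

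The 9 genes together made up 0.637% of microglial UMIs in WT vehicle and 0.448% in WT DMXAA nuclei (0.497% without replicate 3), and 0.597% and 0.625% in KO vehicle and KO DMXAA nuclei. Their summed level was 6481, 6422, 6265 and 6313 CPM in WT vehicle replicates 1 to 4 and 4524, 4895, 3259 and 5453 CPM in the WT DMXAA libraries. In KO mice it was 5511 to 6226 CPM with vehicle and 5874 to 6676 CPM with DMXAA. The WT DMXAA sums lay below every WT vehicle sum, while the KO ranges overlapped.

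*P2ry12* and *P2ry13* are Gi-coupled receptors for ADP, through which microglia extend processes towards sites of ATP release. Both lie on chromosome 3, minus strand, of GRCm38, *P2ry12* at 59216272 to 59262871 and *P2ry13* at 59207892 to 59210882, 5389 bases apart and inside the oppositely oriented *Med12l*. In microglia *P2ry12* was at 1201, 1346, 1298 and 1066 CPM in WT vehicle replicates 1 to 4 and at 814, 965, 799 and 1028 CPM with DMXAA. No DMXAA library reached the lowest vehicle library, and the log2 fold change was −0.41 (SE 0.11, edgeR adjusted p = 0.0654). Without WT DMXAA replicate 3 it was −0.41 (edgeR adjusted p = 0.0152), past the threshold. *P2ry13*, the least abundant member, was at 137, 101, 87.0 and 97.7 CPM with vehicle and 63.5, 69.8, 12 and 59.0 CPM with DMXAA, again without overlap. Its log2 fold change was −1.05 (SE 0.33, edgeR adjusted p = 0.161). With the lowest library, replicate 3, left out, *P2ry13* stood at −0.74 (edgeR adjusted p = 0.0150) and was called.

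*Gpr34*, a receptor for lysophosphatidylserine on chromosome X (13632089 to 13640858, plus strand), lies within an intron of *Cask* on the opposite strand. Its WT vehicle libraries were at 604, 555, 473 and 648 CPM and its WT DMXAA libraries at 359.8, 378, 106 and 473 CPM, so that replicate 4 with DMXAA touched the range of vehicle. The log2 fold change was −0.78 (SE 0.27, edgeR adjusted p = 0.218), and −0.51 (edgeR adjusted p = 0.0115) without WT DMXAA replicate 3, which had the lowest value by far. *Cx3cr1*, the receptor for the neuronal chemokine fractalkine, is annotated at 119901616 to 120069879 on chromosome 9, minus strand, a span that holds or overlaps 9 other genes. It was at 1238, 1270.0, 1167 and 1219 CPM with vehicle and 1088, 1039.7, 626 and 1096 CPM with DMXAA in WT microglia. The 4 DMXAA libraries were all lower, 3 of them at 85.0% to 89.6% of the vehicle mean and replicate 3 at 51.2%. The log2 fold change of −0.32 (SE 0.12, edgeR adjusted p = 0.253) moved to −0.20 (edgeR adjusted p = 0.203) without replicate 3.

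*Fcrls* (chromosome 3, 87250758 to 87263738, minus strand) was at 617, 519, 584 and 694 CPM in the WT vehicle libraries and at 229, 217, 107 and 355 CPM in the WT DMXAA libraries. Every DMXAA library lay well under every vehicle library. The log2 fold change of *Fcrls* was −1.39 (SE 0.21, edgeR adjusted p = 0.00151). Without WT DMXAA replicate 3 its log2 fold change was −1.19 (SE 0.14, edgeR adjusted p = 3.95e-07), still called. In a fit of the 8 WT libraries alone it was −1.38 and not past the threshold (edgeR adjusted p = 0.0698), where 0.0580% of genes were called lower. *Siglech*, a sialic acid-binding lectin on chromosome 7 (55768178 to 55778925, plus strand), was at 1229, 1180.0, 1160.2 and 991 CPM with vehicle and 962, 881, 666 and 877 CPM with DMXAA, also without overlap. Its log2 fold change was −0.40 (SE 0.11, edgeR adjusted p = 0.0913) and −0.35 (edgeR adjusted p = 0.0414) without replicate 3.

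*Selplg* encodes PSGL-1, the ligand of P-selectin, and *Tmem119* a transmembrane protein used to tell microglia from blood-derived macrophages. The genes lie 18019 bases apart on chromosome 5, minus strand, *Tmem119* at 113793729 to 113800516 and *Selplg* at 113818536 to 113832644. *Selplg* was at 904, 912, 978 and 1084 CPM with vehicle and 588, 869.9, 657 and 1049.6 CPM with DMXAA in WT microglia. The DMXAA libraries were spread widely, replicate 1 the lowest and replicate 4 within the range of vehicle. *Tmem119* was at 184, 211, 190.4 and 226 CPM with vehicle and 159, 173, 84.0 and 225 CPM with DMXAA. Replicate 4 again lay within the vehicle range and replicate 3 far below it. *Sall1*, a zinc finger transcription factor that in the brain is largely restricted to microglia among immune cells, lies on chromosome 8 (89027235 to 89044162, minus strand). Its levels were 367, 329.6, 328 and 287 CPM with vehicle and 259.6, 302, 202 and 289.5 CPM with DMXAA, and the groups overlapped. The log2 fold changes were −0.26 (SE 0.14) for *Selplg*, −0.32 (SE 0.19) for *Tmem119* and −0.29 (SE 0.13) for *Sall1*, and none of these passed the test with or without replicate 3 (edgeR adjusted p between 0.450 and 0.666 with all libraries).

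The 4 WT DMXAA libraries lay wholly below the 4 WT vehicle libraries for 5 of the 9 genes, *P2ry12*, *P2ry13*, *Cx3cr1*, *Siglech* and *Fcrls*, as did 3.34% of all genes tested. Without replicate 3 the count was again 5, against 9.71% of all genes. With levels averaged over nuclei, so that each nucleus weighs the same, *Siglech* overlapped and the count was 4, against 3.22% of genes. Across members the size of the difference varied. Mean levels with DMXAA ranged from 37.6% of vehicle for *Fcrls* and 48.4% for *P2ry13* to 80.2% for *Sall1* and 81.6% for *Selplg*. Without replicate 3 the range was 44.3% for *Fcrls* to 91.7% for *Tmem119*.

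**Figure D2:**
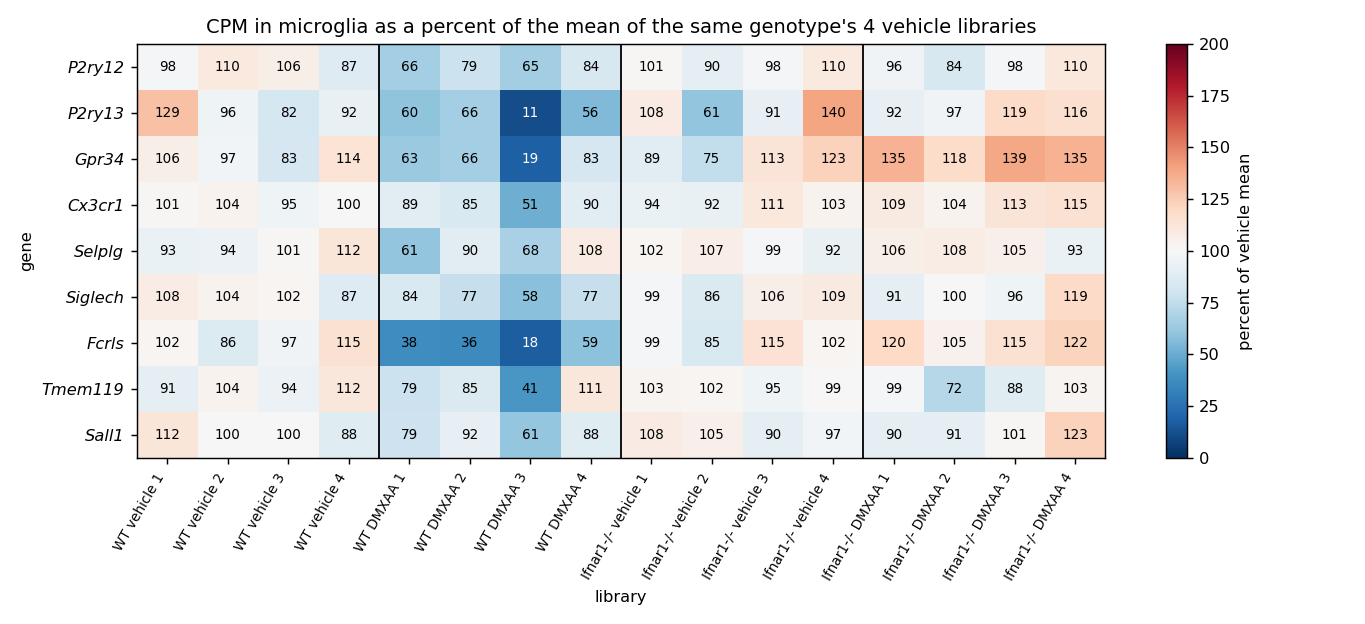
Microglial CPM of each gene (vertical axis) in each of the 16 libraries (horizontal axis), printed and coloured as a percent of the mean of the 4 vehicle libraries of the same genotype. In the WT DMXAA columns *Fcrls* is at 17.7% to 58.9%, the lowest cell is *P2ry13* in replicate 3 (11.4%), and *Selplg* and *Tmem119* in replicate 4 exceed 100%, as do many cells of the KO DMXAA columns.

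The fall of *Fcrls* was also seen as fewer nuclei with its transcript. With every nucleus thinned to 500 UMIs, a *Fcrls* UMI was held by 24.5% ± 1.07 (SD, n = 4) of microglia after vehicle and by 9.71% ± 5.14 after DMXAA in WT mice (11.5% ± 4.55 in 3 libraries without replicate 3). The KO shares were 21.9% ± 4.08 with vehicle and 23.4% ± 2.04 with DMXAA. Unthinned, 62.2% of WT vehicle and 31.1% of WT DMXAA microglia (35.6% without replicate 3) held it, at median depths of 1854.5 and 1935 UMIs. In excitatory neurons, which should lack *Fcrls*, the thinned share over all groups was 0.0318% and the unthinned share 0.370% at a median of 8615 UMIs. Thinned shares of microglia with *P2ry12* were 45.3% and 33.5% (34.9% without replicate 3) in WT vehicle and WT DMXAA, those with *Gpr34* 23.1% and 14.2% (17.7% without replicate 3), and those with *Tmem119* 7.44% and 7.02% (8.07% without replicate 3). The thinned shares in excitatory neurons were 2.08%, 0.136% and 0.0136%. Few microglia were without the set. In WT DMXAA, 0.344% of nuclei held no UMI of any member and 88.7% held at least 3 members (0.188% and 92.0% without replicate 3), against 0.150% and 96.4% in WT vehicle.

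Without the interferon receptor no member was called in microglia, nor was any gene at all (0% of 8948 genes by edgeR, with 429 at an unadjusted p under 0.05). *Fcrls* in KO microglia was at 465, 399, 541 and 482 CPM with vehicle and 564, 494, 544 and 578 CPM with DMXAA, overlapping, with a log2 fold change of 0.17 (SE 0.21). *P2ry12* was at 1276, 1143, 1244 and 1390.5 CPM with vehicle and 1217, 1064, 1240.1 and 1394 CPM with DMXAA. *Gpr34* had the highest value among members, 0.36 (SE 0.28), from 252, 212, 317 and 347 CPM to 381, 333, 391 and 381 CPM, and 1 DMXAA library fell within the vehicle range. Log2 fold changes of the 9 genes ran from −0.18 for *Tmem119* to 0.36 for *Gpr34*, with a median of 0.01. No member had its 4 KO DMXAA libraries all below the 4 vehicle libraries, as 2.50% of genes tested did. The data leave room for changes in KO microglia, since the 95% intervals were −0.27 to 0.62 for *Fcrls*, −0.30 to 0.15 for *P2ry12* and −0.67 to 0.78 for *P2ry13*.

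**Figure D3:**
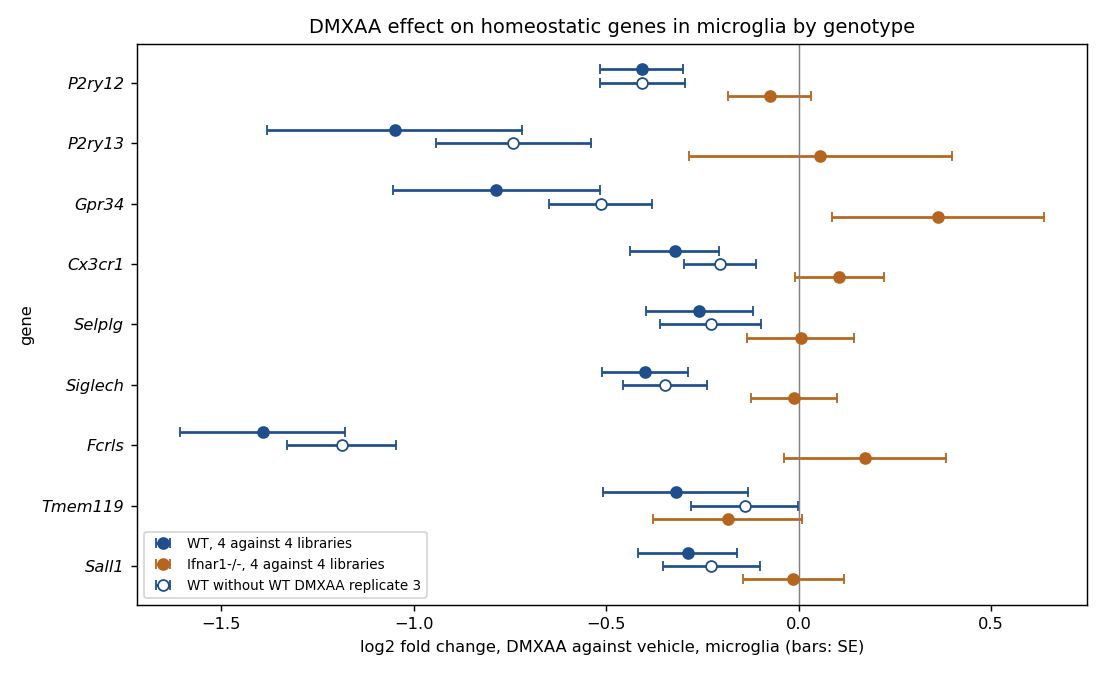
Log2 fold change of DMXAA against vehicle in microglia (horizontal axis) for each gene (vertical axis), with SE bars, in WT (filled blue), in WT without WT DMXAA replicate 3 (open blue) and in *Ifnar1*-/- mice (brown). All 9 WT values lie left of 0 both ways, *Fcrls* farthest at −1.39, and the KO values lie on both sides.

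Whether the DMXAA effect itself differed between genotypes was tested as an interaction. For *Fcrls* the WT effect minus the KO effect was a log2 difference of −1.56 (SE 0.30, edgeR adjusted p = 0.0403). It was the only member called, where 0.0782% of genes tested were called lower. The call was lost when any 1 of 14 libraries was left out, with values of −1.64 to −1.47 and adjusted p up to 0.116, and held without WT DMXAA replicate 3 (−1.36) or 4 (−1.87). *Gpr34* (−1.15, edgeR adjusted p = 0.434) was called without WT DMXAA replicate 3 (−0.87, edgeR adjusted p = 0.0169), where 0.364% of genes were called lower. For *P2ry12*, *P2ry13*, *Cx3cr1* and *Siglech* the differences were −0.33, −1.11, −0.43 and −0.39, and −0.33, −0.80, −0.31 and −0.34 without replicate 3, none called.

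Between the vehicle groups of the genotypes 1 of the 9 members was called lower, as were 6.24% of all genes, so the count is near that of genes at large. It was *Gpr34*, which was lower in KO than in WT vehicle microglia (282 ± 61.4 against 570.0 ± 75.3 CPM, SD, n = 4), with a log2 fold change of −0.90 (SE 0.27, edgeR adjusted p = 0.0400). That call was lost in 12 of the 16 fits with a library left out. *Selplg* was at 1153 ± 69.0 CPM in KO and 969 ± 83.5 CPM in WT vehicle microglia (log2 0.37, edgeR adjusted p = 0.0849), and was called higher without WT DMXAA replicate 1, 3 or 4, fits in which 6.65% (replicate 4) to 16.4% (replicate 3) of all genes were called higher. *Malat1* was at 10239 to 20734 CPM in KO microglia, 29829 CPM in those of WT DMXAA replicate 3 and 45055 to 64616 CPM in those of the other 7 WT libraries. Its part in the differences between genotypes was not tested, and age differs in the same way.

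Border macrophages held the 9 genes unevenly. In WT vehicle libraries their *Fcrls* level was 78.2% of that in microglia, that of *P2ry12* 38.4%, *Cx3cr1* 29.2%, *P2ry13* 23.2%, *Gpr34* 19.6%, *Siglech* 9.05% and *Selplg* 8.04%. In KO vehicle libraries *Fcrls* was at 108% of the microglial level, *Gpr34* at 30.2%, *P2ry12* at 24.9% and *Selplg* at 6.61%. Whether the order of the middle members differs between genotypes was not tested. Some shares rest on few border macrophage UMIs. In WT and KO vehicle these were 23 and 17 for *Gpr34*, 16 and 15 for *Selplg* and 5 and 2 for *P2ry13*. *Gpr34* was lower in KO than in WT in microglia (285 against 573 CPM). In border macrophages its pooled levels were 86.2 and 113 CPM, and the libraries overlapped (45.8 to 143 CPM in KO and 31.4 to 162 CPM in WT vehicle). *Sall1* and *Tmem119* had no UMI among the 204439 UMIs of WT vehicle or the 197190 UMIs of KO vehicle border macrophages, which allows up to 14.7 and 15.2 CPM by counting error alone. These are pooled values with no test. Microglia held 94.3% of all *Siglech* UMIs in the nuclei kept, 92.6% of *Selplg*, 86.9% of *Tmem119* and 84.2% of *Fcrls*, but 51.0% of *Sall1* and 32.6% of *P2ry12*, of which excitatory neurons held 47.7%. The 44028 excitatory neuron nuclei had *P2ry12* at 38.8 CPM, against 1130 CPM in the 4781 microglia.

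Of the members tested in border macrophages, *Fcrls* had the largest treatment difference. It was at 515, 346, 404 and 592 CPM in WT vehicle replicates 1 to 4 and at 137, 242, 77.4 and 175 CPM with DMXAA, from 9 to 43 UMIs per library. In these sums every DMXAA library lay below every vehicle library, as it did for 3.48% of genes tested, and the DMXAA mean was 34.0% of vehicle. With levels averaged over nuclei they did overlap, WT DMXAA replicate 2 being at 345 CPM and WT vehicle replicate 2, which had under 20 such nuclei, at 312 CPM. *P2ry12* was then the member with every DMXAA library lower, where 3.68% of genes were. The log2 fold change of *Fcrls* was −1.64 (SE 0.36) and was not called (edgeR adjusted p = 0.149), in a fit that left out WT vehicle replicate 2, KO vehicle replicate 1 and KO DMXAA replicate 2, which had under 20 such nuclei. Without WT DMXAA replicate 3 it was −1.36 (edgeR adjusted p = 0.116). With doublets kept, or with no filter on low counts, *Fcrls* was called (log2 −1.85 and −1.65), where 1.41% and 1.24% of genes were called. In KO border macrophages *Fcrls* was at 379, 366, 643 and 565 CPM with vehicle and 652, 335, 671 and 397 CPM with DMXAA. The groups overlapped and the log2 fold change was 0.05 (SE 0.36).

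The other members tested in border macrophages were *P2ry12*, *Cx3cr1* and *Siglech*, with WT log2 fold changes of −0.67 (SE 0.35), −0.35 (SE 0.40) and −0.21 (SE 0.53), or −0.59, −0.01 and −0.11 without WT DMXAA replicate 3. In KO mice they were at 1.01 (SE 0.38, edgeR adjusted p = 0.807), 0.25 (SE 0.45) and 0.47 (SE 0.54). The fit left out KO vehicle replicate 1, which had the highest *P2ry12* of its group (674 CPM, the next 339 CPM). Over all 4 libraries of each group the KO means of *P2ry12* were 363 CPM with vehicle and 576 CPM with DMXAA. The WT effect minus the KO effect of *P2ry12* was −1.69 (edgeR adjusted p = 0.225, or −1.57 and 0.269 without replicate 3), in which the KO value was the larger part. The remaining 5 members had too few counts. None of the 4 was called for DMXAA in either genotype, where 0.104% of genes passed in WT border macrophages and 0% in KO ones (98 genes at an unadjusted p under 0.05 in KO by edgeR). Monocyte markers summed to 240 to 723 CPM in this cluster in WT vehicle libraries and to 1672 to 4179 CPM in WT DMXAA libraries, and their part in the lower values was not tested. The effect of DMXAA on *Fcrls* in microglia minus that in border macrophages was 0.07 in WT (95% interval −0.66 to 0.79), or 0.11 without WT DMXAA replicate 3, and no member was called either way. This test called 0.570% of genes in WT (0.625% without replicate 3) and 0.0112% in KO mice.

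**Figure D4:**
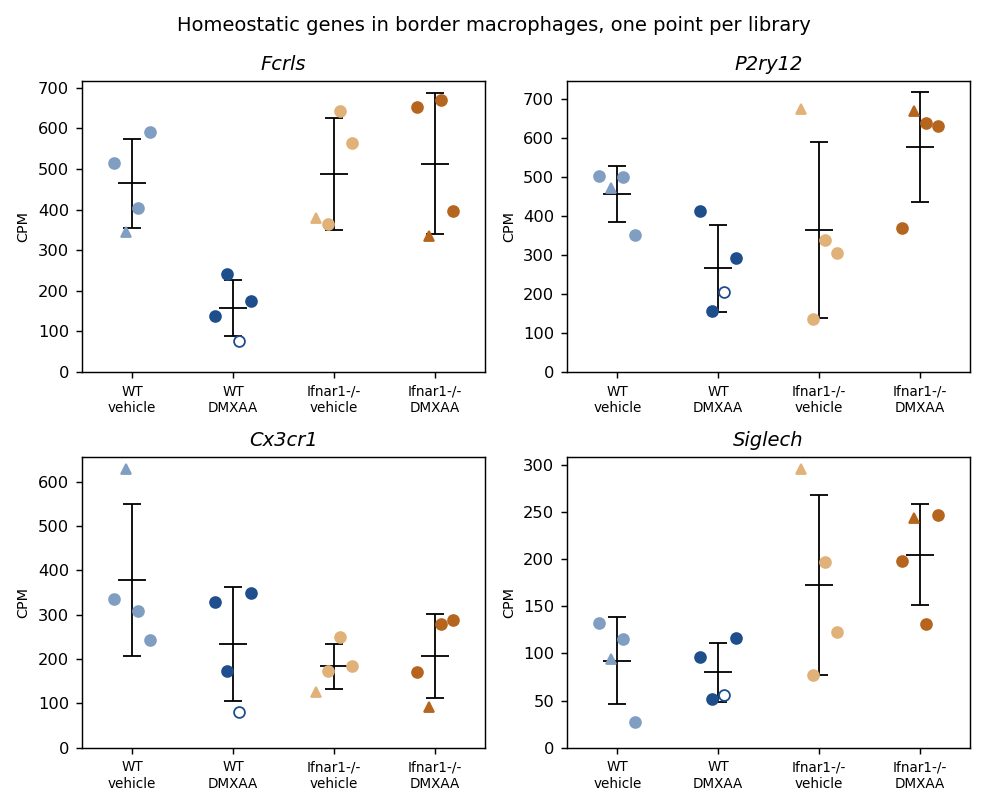
Level in border macrophages, as CPM on a linear axis from 0, of the 4 members with enough counts for a test. Each point is 1 library, bars and whiskers are the mean and SD of 4 libraries, triangles are libraries with under 20 nuclei, which the test left out, and the open point is WT DMXAA replicate 3. The WT DMXAA points of *Fcrls* lie between 77.4 and 242 CPM, below all WT vehicle points, and the other genes overlap.

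Excitatory neurons, which should lack these receptors, carried some of the transcripts, and so did other classes. Over all libraries *P2ry12* was at 38.8 CPM in excitatory neurons, 33.9 CPM in astrocytes and 32.6 CPM in inhibitory neurons. It was lower in oligodendrocytes, at 5.78 CPM. *P2ry12* was at 56.3, 65, 41.9 and 55.9 CPM in neurons of WT vehicle libraries and 84.0, 92.4, 8.63 and 69.1 CPM with DMXAA, and at 8.21 to 29.3 CPM in KO libraries. The low WT value was that of replicate 3. *Med12l*, which surrounds *P2ry12* and *P2ry13*, was at 271 CPM in these neurons and 412 CPM in microglia. Which strand the counting used is not given in the sources used here, so reads of *P2ry12* and *Med12l* may not have been told apart, and the same holds for *Gpr34* within *Cask* (174 CPM in neurons, 369 CPM in microglia). *Fcrls*, *Tmem119*, *Siglech* and *Sall1* were at 1.05 CPM or less in the neurons of every library. DMXAA called no member in neurons, with 7 tested, where 0.120% of genes passed in WT mice and 0% in KO mice (956 at an unadjusted p under 0.05 in KO by edgeR). Without WT DMXAA replicate 3 there was again no call, where 0.258% of genes passed in WT mice, and *P2ry12* was at 0.56 against 0.21 on the log2 scale with it. Between the vehicle groups *P2ry12* (−1.53) and *Cx3cr1* (−1.20 on the log2 scale) were called lower in KO neurons, as were 25.7% of all genes. *Gpr34* was added without replicate 3, where 31.5% were called lower. Apart from replicate 3, the WT DMXAA neuron libraries had 4 members above every vehicle library, *P2ry12*, *P2ry13*, *Gpr34* and *Cx3cr1*, as had 9.89% of all genes. In KO neurons *Gpr34* was above every vehicle library, as were 5.56% of genes. *Malat1* also moved that way in WT neurons, from 48670 to 63313 CPM with vehicle to 68875 to 89471 CPM with DMXAA apart from replicate 3, and its part was not tested. *Cx3cr1* was also read at 151 CPM in choroid plexus and ependymal nuclei, which held 9.6% of its UMIs.

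Other genes of the same state were read from a list of 28 transcripts known from homeostatic microglia. In WT microglia 4 were called lower and 1 higher, with a median log2 fold change of −0.38 (9 lower and 1 higher without replicate 3, median −0.24). Of all genes tested, 0.570% were called lower and 1.23% higher, and 5.66% and 3.75% without replicate 3. *Nav3*, a microtubule-binding navigator protein, fell from 2695 ± 156 to 1486 ± 408 CPM (SD, n = 4). *Hpgd*, which inactivates prostaglandins, went from 360.3 ± 57 to 185 ± 68.5 CPM, and *Hpgds*, a prostaglandin D synthase, from 925 ± 76.4 to 651 ± 120.4 CPM. *Slc2a5*, the fructose transporter GLUT5, dropped from 144 ± 17.4 to 88.8 ± 16.6 CPM. *Csf3r*, the receptor for granulocyte colony-stimulating factor, rose from 587 ± 31.1 to 784 ± 70.1 CPM. These 5 had log2 fold changes of −0.80, −0.93, −0.48, −0.65 and 0.45, with edgeR adjusted p between 0.0134 and 0.0429. None of the 28 was called in KO microglia.

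For DMXAA against vehicle in WT or KO microglia, regulators and ligands of the programme gave no call with all libraries. Of 21 listed regulators 17 were tested, and of 7 listed ligands and binding partners 3. *Mef2c*, a transcription factor that restrains microglial activation, was at 1985 ± 232 CPM with vehicle and 1461 ± 189.5 CPM with DMXAA in WT microglia (log2 −0.41, edgeR adjusted p = 0.0738). *Mef2a*, a factor of the same family, was at 2514 ± 226 and 2172 ± 364 CPM (log2 −0.18). Without replicate 3, 3 regulators were called higher and 2 lower, and 1 ligand higher and 1 lower, where 3.75% of all genes were called higher and 5.66% lower. The regulators called lower were *Mef2c* and *Tgfb1*, and *Csf1* and *Bhlhe41* were among those called higher, names given here after their values were seen. *Tgfb1* and *Csf1* stand on both lists and are also the 2 ligands called. *Tgfb1* encodes the growth factor on which the programme depends (from 178 ± 13.5 to 142 ± 22.1 CPM over all 4 libraries) and *Csf1* a ligand of the survival receptor CSF1R, at 8.20 to 14.5 CPM with vehicle and 10.7 to 73.4 CPM with DMXAA. At such low vehicle levels *Csf1* could have passed the filter on low counts through the WT DMXAA libraries alone, and nothing is read from its call. Of 13 other purinergic genes 6 were tested and none was called for DMXAA, *Entpd1*, which hydrolyses ATP and ADP, at log2 0.14 and the UDP receptor *P2ry6* at log2 0.12 in WT microglia (0.06 and 0.27 without replicate 3, none of the list called). Between the vehicle groups, KO against WT, 5 regulators were called higher and 1 lower, 1 ligand higher and 2 purinergic genes higher in microglia, where 6.57% of all genes were called higher and 6.24% lower. Few genes were tested on each list, and nothing is read from these counts. In excitatory neurons the fractalkine gene *Cx3cl1* had a log2 fold change of −0.32 (SE 0.17, edgeR adjusted p = 1) in WT and −0.05 in KO mice, and *Il34*, another CSF1R ligand, of −0.05 and −0.31, none called. The WT values were −0.24 for *Cx3cl1* and −0.18 for *Il34* without WT DMXAA replicate 3. With a library left out they ran from −0.46 to −0.15 for *Cx3cl1* and from −0.18 to 0.08 for *Il34*, none called.

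The lower homeostatic genes stood beside higher levels of interferon-stimulated genes in WT DMXAA microglia. Of 113 listed interferon-stimulated genes 63 were tested in WT microglia, and 48 were called higher and none lower (65 of 73 without replicate 3), where 1.23% and 3.75% of all genes were called higher. Listed genes near 0 with vehicle could pass the filter on low counts only through the WT DMXAA libraries, so the share called among those tested is partly set by the filter and nothing is read from it. The levels of *Oas2*, *Ifi207*, *Ifi213*, *Oasl2* and *Slfn5*, named by the rule for listed genes, are given with no fold change, since their vehicle levels were at or near 0. *Oas2*, which makes an activator of the antiviral nuclease RNase L, was at 0 UMIs in the 4 WT vehicle libraries and at 55.2 to 219 CPM in the WT DMXAA libraries. *Oasl2*, of the same family, was at 0 to 9.65 and 68.4 to 642 CPM. *Ifi207* and *Ifi213*, DNA-binding PYHIN proteins, reached 34.8 to 289 and 80.4 to 450.1 CPM with DMXAA from at most 1.61 and 4.25 CPM with vehicle, and *Slfn5* 55.2 to 269.5 CPM from at most 3.22 CPM. In KO microglia none of the list was called. Among 18 genes of disease-associated microglia 9 were tested and *Axl*, a receptor tyrosine kinase for apoptotic cells, was called. It was at 1.42 to 4.92 CPM with vehicle and 18.8 to 53.6 CPM with DMXAA. At these low vehicle levels *Axl* too could have passed the filter through the WT DMXAA libraries alone, and nothing is read from its call. *Apoe* was called as well without replicate 3, where 9.41% of all genes were called in either direction.

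In WT DMXAA replicates 1 to 4 the summed interferon-stimulated list reached 17631, 10237, 5139 and 9134 CPM, against 2250 to 2468 CPM in WT vehicle and 1316 to 1643 CPM in KO microglia. In replicates 1, 2 and 4 a higher interferon sum went with a lower homeostatic sum (4524, 4895 and 5453 CPM). Replicate 3 broke this order, with the smallest of both sums. The order of so few libraries was not tested.

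**Figure D5:**
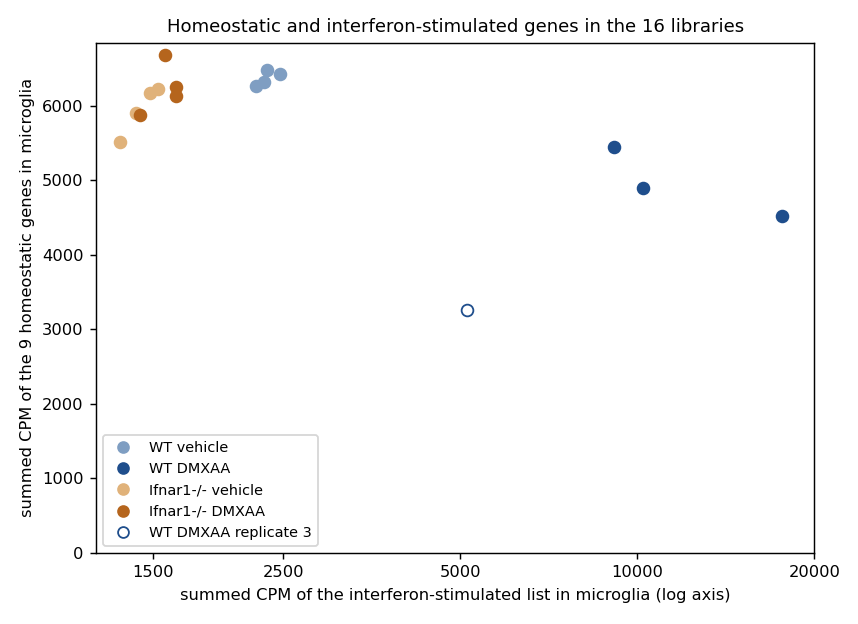
Summed CPM of the 9 homeostatic genes (linear vertical axis) against summed CPM of the interferon-stimulated list (log horizontal axis) in microglia, 1 point per library, coloured by group. The KO libraries of both treatments overlap at the left, WT vehicle lies at 2250 to 2468 on the horizontal axis, and WT DMXAA lies to the right and lower, with replicate 3 (open) lowest.

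Among the genes whose pattern over the 16 libraries was most like the mean of the 9 in microglia, of 4058 genes with a mean of at least 50 CPM, were *Laptm5*, a lysosomal membrane protein (Pearson r = 0.957), *Sparc*, a secreted matrix protein (0.948), *Hpgds* (0.931) and *Olfml3*, a secreted glycoprotein (0.918). *Sparc*, *Hpgds* and *Olfml3* are among the 28 listed homeostatic genes. Without WT DMXAA replicate 3 the values were 0.810, 0.853, 0.910 and 0.632, so of these the likeness of *Olfml3* rested most on that library. These are descriptions of 16 libraries that share depth and preparation, with no test.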

How the data were processed

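Nuclei of the hippocampus were profiled with droplet 3′ single-nucleus RNA-seq in 16 libraries. The authors deposited raw UMI counts per gene and barcode from Cell Ranger on mm10. The labels name version 3.1.0 with Seurat 3.0 and the file headers version 6.1.2, and the strand setting is not given in the sources used here. Nuclei with 200 to 4000 genes and under 5% mitochondrial UMIs were kept, and per library 0.8% per 1000 nuclei with the highest simulated-doublet score were removed. Clustering (2000 variable genes, 30 components, leidenalg 0.10.2 at resolution 0.5) left out the 9 genes and the interferon-stimulated list. Clusters were named from marker lists. Counts were summed per library and class, 5163 to 9237 nuclei per library in all, and fitted over all groups with edgeR 4.0.16 (quasi-likelihood, TMM, Benjamini-Hochberg over all genes), as a count test over libraries, whereas the study tested single nuclei. A gene was called where the adjusted p was below 0.05 and the log2 fold change exceeded 0.1 in size. DESeq2 1.42.0 was an alternative. Border macrophage sums needed 20 nuclei. Scripts were tested on simulated data. The 9 genes, the lists and the rule for naming genes were chosen with earlier results of these data known. Named genes were the members, up to 5 called genes of each list by size of change (otherwise the 2 most abundant) and the 5 most alike, and some results under this rule are not reported here.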

Additional observations from a re-analysis of the deposited data

Results flagged for a closer look

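*Cx3cr1* in microglia of WT DMXAA replicate 3, at 626 CPM, lay apart from the other 3 libraries of its group by more than Dixon's 95% value. The same was true of *P2ry12* in border macrophages of KO DMXAA replicate 1, at 368 CPM. Of 52 groups of 4 libraries examined these were the 2 past that value, and chance flags about 1 in 20. The effect of DMXAA on *Fcrls* in microglia differed between genotypes by −1.56 on the log2 scale (WT minus KO) in the interaction test of edgeR (adjusted p = 0.0403). That call was lost when any 1 of 14 libraries was left out, and genotype and age cannot be told apart.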

How the results depend on the processing

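The log2 fold changes of the 9 genes in WT microglia kept their sign under every alternative run, and *Fcrls* kept its call in all of them except the fit of the WT libraries alone. Members called lower in WT microglia numbered 1 to 5 with a library left out (0.287% to 5.66% of all genes), 2 by DESeq2 (0.682%), 2 with library size alone (0.760%) and 0 in the fit of the WT libraries alone (0.0580%). With a library left out, the interaction gave 0 to 2 calls (0.0642% to 0.883% of genes in either direction) and KO against WT vehicle 0 to 2 (6.30% to 30.6%). *Fcrls* was the 1 member called in WT border macrophages with doublets kept, and likewise the 1 member called with no filter on low counts. Without WT DMXAA replicate 3, an alternative chosen for the lists after seeing the data, 10 other homeostatic genes, 5 regulators, 2 ligands and 2 disease-associated genes were called, in a fit that called 9.41% of all genes in either direction (1.80% with all libraries). KO effects near 0, none called, changed sign. With doublets kept they were 0.0323 for *P2ry12*, 0.0551 for *Siglech* and 0.0716 for *Sall1*. With library size alone *Siglech* was at 0.021 and *Sall1* at 0.0233, and in the KO libraries alone at 0.00241 and 0.00881. With nuclei classed by a marker rule *P2ry13* was at −0.0191, *Cx3cr1* at −0.056 and *Selplg* at −0.0124, and the *Sall1* interaction at 0.057. *Selplg* was at −0.0103 when clustering kept all genes, −0.00942 by DESeq2, −0.00421 with no filter and −0.00952 with RLE factors. With all genes kept, border *Fcrls* in KO was at −0.00304. With a library left out, KO effects ranged from −0.11 to 0.254 for *P2ry13*, −0.098 to 0.0308 for *Siglech*, −0.122 to 0.0281 for *Sall1*, −0.0333 to 0.0507 for *Selplg* and −0.175 to 0.293 for border *Fcrls*. The same ranges were −0.348 to 0.0423 for the *Tmem119* interaction, −0.592 to 0.119 for border *Siglech* in WT, and −0.141 to 0.269 (WT) and −0.056 to 0.395 (KO) for *Fcrls* in microglia minus border macrophages. The cause of these changes was not tested. Leaving out nuclei under 500 UMIs changed nothing, since none had fewer. Border macrophages, at 12 to 35 nuclei in all libraries but 1, limit what can be detected there. Vehicle and DMXAA libraries could not be paired, because the replicate numbers follow accession order and the labels pair no samples. The test of microglia against border macrophages compared the classes within each library.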
